A study of Caenorhabditis elegans with 80 samples.

Results

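The genes described here encode the hedgehog-related proteins of Caenorhabditis elegans and the membrane proteins related to Patched. They were taken as every gene whose array probe set carries 1 symbol that begins with wrt-, grd-, grl- or ptr- and a number, together with qua-1, hog-1, ptc-1 and ptc-3. Each gene was represented by its probe set of highest mean signal. This gave 80 genes, measured by 95 probe sets, out of 17118 genes with such a probe set on the array. They comprised 10 warthog genes (wrt), 12 groundhog genes (grd), 30 ground-like genes (grl), quahog (qua-1) and hog-1, the 2 patched genes ptc-1 and ptc-3, and 24 patched-related genes (ptr).

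In flies and mammals, Hedgehog is a secreted signal that cuts itself through its carboxy-terminal Hog domain and is received by Patched, a membrane protein with a sterol-sensing domain that holds Smoothened in check. C. elegans has neither a Hedgehog gene proper nor Smoothened, but it carries families of secreted proteins in which a Wart, Ground or Ground-like domain takes the place of the signalling domain, some of them followed by a Hog domain, and an enlarged family of Patched-like proteins. Many of these genes are active in the epidermis, and their loss commonly gives defects of moulting, cuticle and growth.

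Synchronized worms in the middle of L4, the last larval stage, were exposed in CeHR, a culture medium without bacteria, to acrylamide, an industrial monomer, or to the metals cadmium or mercury. Polyadenylated RNA of whole worms was read on 80 arrays, 1 array per sample, in 27 groups. The exposed groups received 100, 500 or 1000 mg/L of acrylamide, 5, 20 or 50 mg/L of cadmium, or 5, 10 or 25 mg/L of mercury, called low, mid and high here, for 4 h or 8 h. Each chemical formed a series with its own unexposed controls at 4 h and 8 h and a control at 0 h, for which the protocol describes a single flask. Groups were of 3 arrays, apart from mid cadmium at 4 h with 2 arrays. The strain is not given in the sources used here. Nothing in the labels says that replicates were separate cultures, and the p values therefore take in only the spread among these arrays, some of which may be technical.

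Signals are MAS5 signals after centring each array on a median of 202.9, and log2 changes are on the scale log2(signal + 51), which understates the change of dim genes. Errors are standard errors of the log2 change (SE, n = 3 against 3 unless stated), and a gene was called at a limma adjusted p under 0.05 over all probe sets tested. Of the 80 members, 65 passed the signal filter in the acrylamide series, 60 in the cadmium series and 59 in the mercury series, 57 passed in all 3 series, and 14 passed in none. The members that passed in none were grd-7, grd-9, grd-16, grl-3, grl-8, grl-11, grl-13, grl-18, grl-19, grl-24, grl-29, grl-30, grl-31 and ptr-19. In whole worms, fewer cells of a type and less RNA per cell cannot be told apart. All listed markers of epidermis, intestine, body wall muscle, pharynx, neurons and germline (7, 6, 5, 5, 5 and 7 genes) passed the filter in every series.

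Some arrays stood apart from the others of their group. Replicate 1 of the acrylamide series differed from replicates 2 and 3 at 0 h, 4 h and 8 h: wrt-10 had a signal of 200 in control replicate 1 at 8 h, beside 1061 and 510.7 in the others, and 2420 at 4 h, beside 5601 and 7353. Its control array at 0 h also had a trimmed mean of 213.2 before centring, while the other 79 arrays lay between 493.5 and 497.4. Results of the acrylamide series are therefore also given without replicate 1 in every acrylamide group, a setting chosen after seeing the data. The 2 arrays of the cadmium mid dose at 4 h were far apart as well, with signals of 67.85 and 601.8 for grd-2 and 6236 and 779.4 for grd-3. In the cadmium control at 0 h, grd-3 had 6172, 908.5 and 3242. Correlations of log2 signals between arrays of a group lay between 0.831 and 0.984 (median 0.965).

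The widest movement of these genes was found in worms that received no chemical. Between 4 h and 8 h, 31 of 59 tested members fell and 1 rose in the mercury controls, where 14.1% of all probe sets tested were called (4.48% as higher and 9.62% as lower). In the cadmium controls 24 of 60 fell and 2 rose, with 8.46% of all probe sets called (3.56% as higher and 4.89% as lower). In the acrylamide controls 1 of 65 fell, with 0.212% of all probe sets called, 0.0786% as lower. All 24 members that fell in the cadmium controls also fell in the mercury controls, where they made up 77.4% of the members that fell. The matching overlap over all probe sets is not given here. The median log2 change over the tested members was -0.69, -0.52 and -0.41 in the mercury, cadmium and acrylamide controls, beside -0.09, 0.00 and -0.06 over all probe sets tested. The lowest of the 3 group means stood at 8 h for 35 of 59 members in the mercury controls, for 33 of 60 in the cadmium controls and for 38 of 65 in the acrylamide controls. Shares of all probe sets with their lowest mean at 8 h are not given here.

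**Figure D1:**
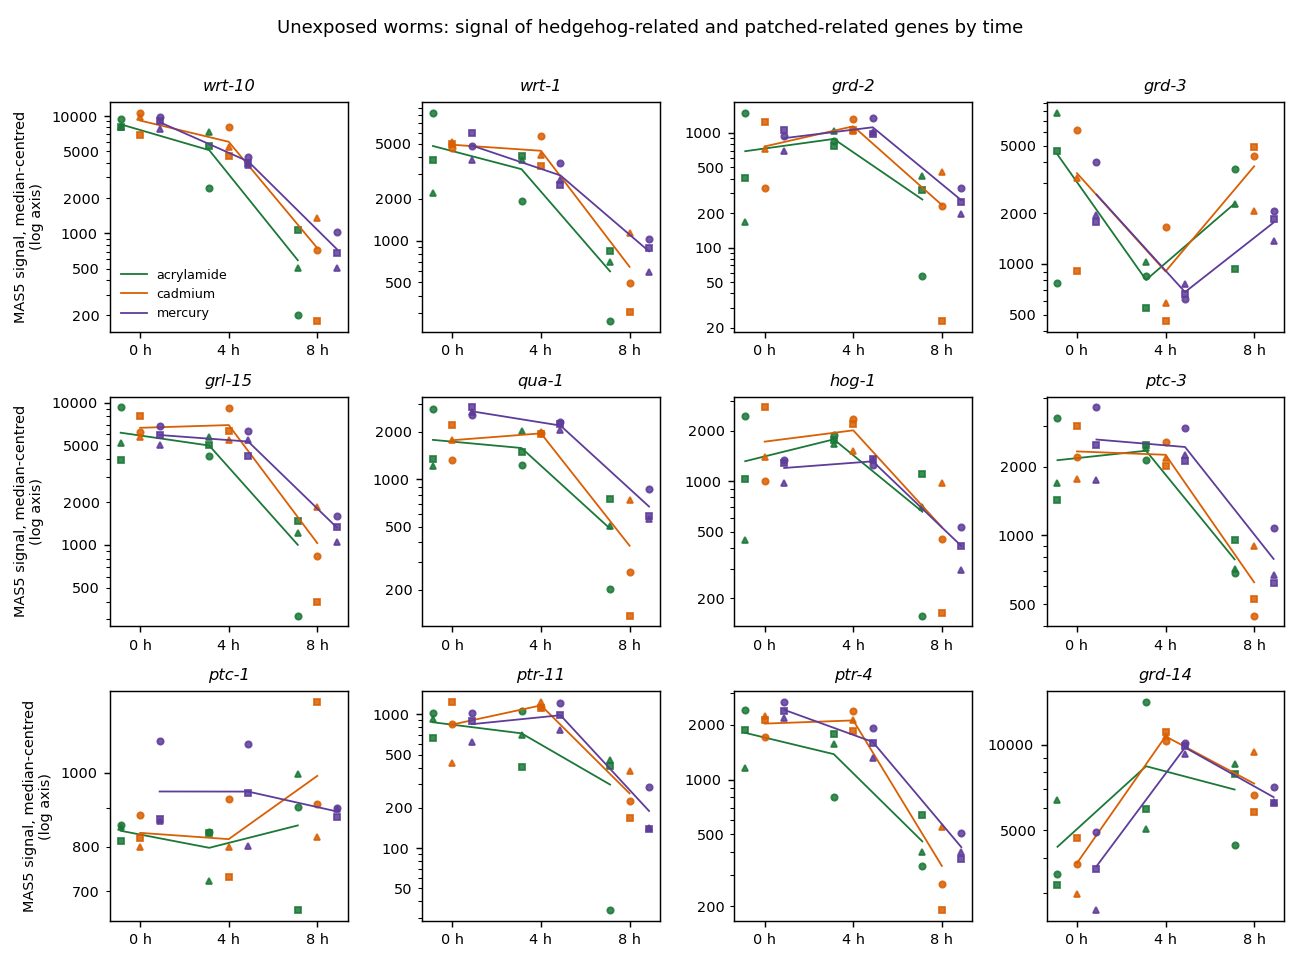
MAS5 signal (log axis) of 12 members in unexposed worms at 0 h, 4 h and 8 h, 1 point per array (circle, square and triangle for replicates 1, 2 and 3) and lines through the group means of each series. In wrt-10, grl-15, qua-1, ptr-11 and ptr-4 the 8 h arrays of the mercury and cadmium series lie below all their 4 h arrays, whereas grd-3 dips at 4 h and ptc-1 stays within a narrow range.

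Among the ligand-like genes, the warthog family held the largest fall. wrt-10 had signals of 1027, 674.6 and 505.2 in the mercury controls at 8 h, against 4491, 3990 and 3848 at 4 h. In the cadmium controls it had 726, 178.6 and 1346 at 8 h, against 8065, 4603 and 5458 at 4 h. The groups did not overlap in either series, and wrt-10 changed by -2.45 ± 0.26 (mercury, limma adjusted p = 1.2e-07) and -3.24 ± 0.46 (cadmium, adjusted p = 3.5e-05) on the log2 scale. wrt-10 was also the single member called in the acrylamide controls, where it fell by 3.12 ± 0.66 (adjusted p = 0.044). That call was lost without control replicate 2 or 3 at 4 h or without control replicate 1 or 3 at 8 h (adjusted p between 0.098 and 0.36), and it held without replicate 1 in every acrylamide group (-3.03, adjusted p = 8.9e-06).

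wrt-1 was also lower at 8 h in both metal series. It had 495.8, 304 and 1140 in the cadmium controls at 8 h, against 5699, 3473 and 4136 at 4 h, a change of -2.84 ± 0.34 (limma adjusted p = 5.6e-06). In the mercury controls wrt-1 changed by -1.77 ± 0.22. In all, 7 of 10 warthog genes fell in the mercury controls and 6 of 10 in the cadmium controls.

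The groundhog genes were divided. grd-2 fell by 1.93 ± 0.25 in the mercury controls (limma adjusted p = 2.8e-06) and by 2.44 ± 0.54 in the cadmium controls. grd-3 went the other way, with 2057, 1842 and 1368 in the mercury controls at 8 h, against 622.2, 662.4 and 758.6 at 4 h. It rose by 1.29 ± 0.28 there (limma adjusted p = 0.0017) and by 2.13 ± 0.59 in the cadmium controls (adjusted p = 0.021), the single member called higher in both. The cadmium call of grd-3 was lost without control replicate 2 or 3 at 4 h or control replicate 1 or 2 at 8 h (adjusted p between 0.088 and 0.13). Of 8 groundhog genes tested, 3 fell and 1 rose in each metal series.

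Of 16 ground-like genes tested, 6 fell in the mercury controls and 4 in the cadmium controls. grl-15 had 1603, 1336 and 1044 in the mercury controls at 8 h, against 6284, 4230 and 5449 at 4 h, and in the cadmium controls 838.2, 396.8 and 1857, against 9101, 6277 and 5450. No 8 h array reached any 4 h array in either series. The change was -1.96 ± 0.19 (mercury, limma adjusted p = 6.5e-08) and -2.9 ± 0.38 (cadmium, adjusted p = 1.4e-05). grl-7 fell by 2.73 ± 0.45 in the cadmium controls (limma adjusted p = 0.00018) and by 1.77 ± 0.23 in the mercury controls.

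qua-1, whose loss in worms blocks moulting, had 872.6, 581.8 and 562.9 in the mercury controls at 8 h, against 2295, 2235 and 2049 at 4 h. It had 257.8, 136.6 and 744.8 in the cadmium controls at 8 h, against 1959, 1926 and 1986 at 4 h. No 8 h array reached a 4 h array, and qua-1 changed by -1.66 ± 0.17 (mercury, limma adjusted p = 1.2e-07) and -2.49 ± 0.39 (cadmium, adjusted p = 0.00011). hog-1, which keeps the Hog domain without a Wart or Ground domain, changed by -1.6 ± 0.18 in the mercury controls and by -2.08 ± 0.4 in the cadmium controls (limma adjusted p = 4e-07 and 0.0011).

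The 2 patched genes are given in turn. ptc-3, an essential gene of the epidermis and other tissues, had 1075, 621 and 667.7 in the mercury controls at 8 h, against 2942, 2111 and 2252 at 4 h. It fell by 1.59 ± 0.27 (limma adjusted p = 0.00013) and, in the cadmium controls, by 1.82 ± 0.29 (adjusted p = 0.00014). ptc-1, needed for cell division in the germline, had 897.7, 876.1 and 895 in the mercury controls at 8 h, against 1090, 941.5 and 801.7 at 4 h. The ptc-1 groups overlapped, and its changes of -0.07 ± 0.16 (mercury), 0.25 ± 0.28 (cadmium) and 0.08 ± 0.18 (acrylamide) did not pass. Of 7 germline markers, 2 rose in the mercury controls, with a summed signal of 19571 to 24902 at 8 h, against 15444 to 19170 at 4 h, and 1 rose in the cadmium controls, with 23115 to 28888, against 16467 to 18118. Among them rme-2, the yolk receptor of oocytes, rose by 0.91 ± 0.19 in the mercury controls and by 1.49 ± 0.35 in the cadmium controls. Their part in the ptc-1 values was not tested.

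Of the patched-related genes, 12 of 21 fell in the mercury controls, and 8 of 22 fell and 1 rose in the cadmium controls. ptr-11 had 288.5, 138.7 and 141.1 in the mercury controls at 8 h, against 1203, 989.7 and 756.8 at 4 h, a fall of 2.14 ± 0.2 (limma adjusted p = 6.5e-08). Its fall of 2.04 ± 0.34 in the cadmium controls was of like size, whereas a second ptr-11 probe set, marked for possible cross-hybridization, fell by 0.82 and 0.9. ptr-4, needed for the apical matrix and moulting, changed by -1.8 ± 0.21 (mercury) and -2.59 ± 0.36 (cadmium), and its second probe set by -1.09 and -1.56. ptr-8 rose by 1.12 ± 0.22 in the cadmium controls (limma adjusted p = 0.00099), after a fall from 0 h to 4 h that rests on the same 4 h controls, and its change of 0.29 in the mercury controls did not pass.

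In the acrylamide controls most of these genes had lower means at 8 h too, but wrt-10 alone passed the test. qua-1 had 202.3, 751.3 and 507.2 at 8 h, against 1233, 1490 and 2018 at 4 h, and its change of -1.72 ± 0.54 missed the threshold (limma adjusted p = 0.11). The values for hog-1 and ptc-3 were -1.69 ± 0.57 and -1.53 ± 0.37 (adjusted p = 0.14 and 0.059). At an unadjusted p under 0.05, 25 of 65 members differed. Without replicate 1 in every acrylamide group, 18 members were called, 16 lower and 2 higher, with 7.52% of all probe sets called, and ptc-3 and qua-1 were then among them (-1.51 and -1.42, adjusted p = 0.00016 and 0.0013).

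The 3 series share no arrays, so their changes could be set side by side. Of 57 members tested in both metal series, 40 had a lower mean at 8 h in both and 14 a higher mean in both, with a correlation of 0.96 between the changes. The mercury and acrylamide changes correlated at 0.9 over 58 members, and the cadmium and acrylamide changes at 0.95 over 60. These correlations run across genes, which are not independent replicates. The matching counts and correlations over all probe sets are not given here, so these values only describe the members. Tests of the difference in the 4 h to 8 h change between series, added after seeing the data, called 0 of 70 members in each of 3 pairs (limma), with 0.0% of all probe sets called and 0 to 2 members at an unadjusted p under 0.05.

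**Figure D2:**
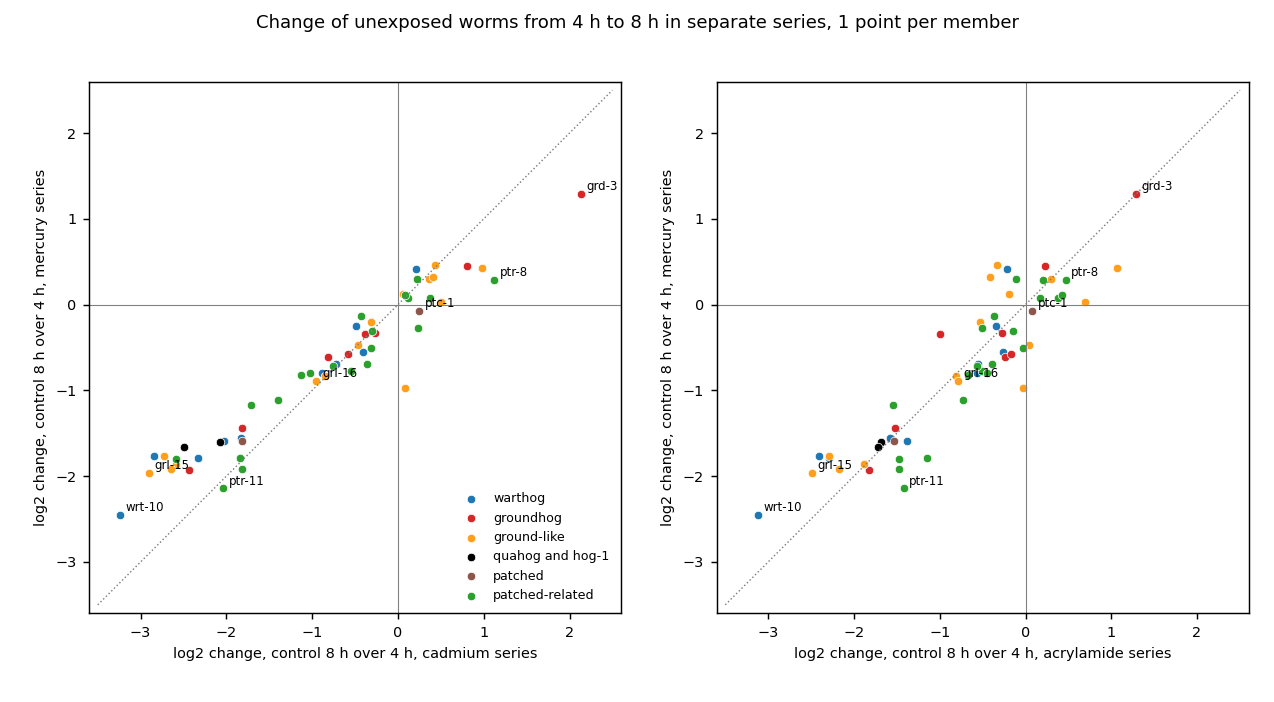
Log2 change from 4 h to 8 h in unexposed worms, 1 point per member coloured by family, in the mercury series (y axes) against the cadmium series (left) and the acrylamide series (right), with dotted lines of equal change. Most points lie in the lower left, wrt-10 at the far end at -2.45 against -3.24 and -3.12, and grd-3 lies farthest to the upper right at 1.29 against 2.13 and 1.29.

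Other genes of the moulting cycle fell beside them, in lists written with earlier results of these data known. Of 20 moulting and cuticle genes, 15 fell in the mercury controls and 15 in the cadmium controls, among them dpy-7, a furrow collagen (-2.18 ± 0.23 and -3.42 ± 0.43), and noah-1, a matrix protein of the moult (-2.19 ± 0.27 and -2.84 ± 0.44). Of the moulting regulators, 8 of 13 fell in the mercury controls and 5 of 12 in the cadmium controls, with bed-3, a zinc finger factor, at -1.39 ± 0.16 and -1.87 ± 0.38. Of 11 genes of other steps of the hedgehog route, 2 fell in each metal series: che-14, a homologue of Dispatched (-1.52 ± 0.18 and -1.79 ± 0.36), and daf-6, a patched-related gene of glia (-1.1 ± 0.16 and -1.58 ± 0.27). Among 7 epidermis markers, 3 fell and 1 rose in the mercury controls, where their summed signal ran from 12902 to 17208 at 8 h and from 14400 to 18441 at 4 h. The marker that rose was col-19, a collagen of the adult cuticle (1.45 ± 0.23). The lowest changes among the epidermis markers, -2.18 (mercury) and -3.42 (cadmium), equal those given for dpy-7 above, so the lists may share genes. Of 5 glia markers and 2 seam cell markers, 0 were called in either metal series by limma, with 0 at an unadjusted p under 0.05. The part of cell type content in the falls was not tested.

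Between 0 h and 4 h the movement was smaller and went both ways. In the mercury controls 8 members rose and 8 fell of 59, with 16.2% of all probe sets called (8.94% as higher and 7.31% as lower). In the cadmium controls 3 rose and 2 fell of 60, with 6.87% called (5.07% as higher and 1.81% as lower), and in the acrylamide controls 1 fell of 65, with 7.88% called (3.91% as lower). With the replicate number as a block, which pairs the arrays here, 8 members were called in the cadmium controls.

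grd-14, a groundhog gene, had 10100, 9906 and 9292 in the mercury controls at 4 h, against 4932, 3645 and 2611 at 0 h. It rose by 1.42 ± 0.2 (limma adjusted p = 6.6e-06) and, in the cadmium controls, by 1.49 ± 0.35 (adjusted p = 0.0091). grl-16 rose by 1.18 ± 0.22 (mercury) and 1.42 ± 0.32 (cadmium), and wrt-8 by 0.88 ± 0.2 (mercury) and 1.2 ± 0.31 (cadmium). The cadmium calls of grd-14, grl-16 and wrt-8 were lost without control replicate 1 or 3 at 0 h (adjusted p between 0.052 and 0.17), and that of wrt-8 also without control replicate 2 or 3 at 4 h (0.054 to 0.086). ptr-23, which acts in the osmotic response of the epidermis, rose by 0.87 ± 0.17 in the mercury controls (limma adjusted p = 0.00047).

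grd-10 and grd-3, neighbours in the RefSeq gene annotation, were the members that fell most from 0 h to 4 h in the mercury controls. grd-10 had 897.2, 859.6 and 618.3 in the mercury controls at 4 h, against 4998, 2704 and 2705 at 0 h, a fall of 2.02 ± 0.24 (limma adjusted p = 6e-07). In the cadmium controls grd-10 fell by 1.92 ± 0.54 (adjusted p = 0.028), a call lost without control replicate 1 or 3 at 0 h or control replicate 2 or 3 at 4 h (adjusted p between 0.1 and 0.25). grd-3 fell by 1.75 ± 0.28 in the mercury controls (limma adjusted p = 3.2e-05) before its rise to 8 h, and both changes rest on the same 4 h control arrays. In the cadmium controls the change of grd-3 was -1.72 ± 0.59 and did not pass (adjusted p = 0.079). The other member that fell there was ptr-8, with 356.3, 234.6 and 271.9 at 4 h, against 715.8, 386.8 and 515.8 at 0 h. It changed by -0.78 ± 0.22 (limma adjusted p = 0.026), a call lost without control replicate 1 or 3 at 0 h or control replicate 2 or 3 at 4 h (adjusted p between 0.077 and 0.24). wrt-10 and ptr-10 fell by 1.1 ± 0.26 and 1.0 ± 0.23 in the mercury controls from 0 h to 4 h (limma adjusted p = 0.0028 and 0.0025). In the acrylamide controls ptr-25 changed by -0.61 ± 0.19, with signals of 209.2, 267 and 226.1 at 4 h, against 342.7, 401.5 and 401.8 at 0 h. ptr-25 was at the threshold: its call was lost without any 1 of the 4 h controls or without control replicate 2 or 3 at 0 h (adjusted p between 0.071 and 0.2). With the deposited scaling 12 members were called in that comparison, all higher. That scaling also shifts the median change of all probe sets upward there. Without control replicate 1 at 0 h 6 members were called, and without replicate 1 in every acrylamide group 19 (24.7% of all probe sets called). For the counts of 12 and 6 the share of all probe sets is not given here, so they only describe the members.

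Acrylamide changed few members. At the low and mid doses limma called 0 of 65 members at 4 h and 0 of 65 at 8 h, with 0.157% and 1.6% of all probe sets called at 4 h and 0.326% and 2.4% at 8 h. The counts at an unadjusted p under 0.05 were 0 and 1 at 4 h and 0 and 6 at 8 h. At the mid dose at 8 h, 1 member was called with the replicate block, which pairs the arrays there, and 7 without replicate 1 in every acrylamide group (3.18% of all probe sets called), qua-1 among them (1.17, adjusted p = 0.011). At the high dose 2 of 65 members rose at 4 h, with 6.16% of all probe sets called (3.11% as higher), and 4 of 65 rose at 8 h, with 8.77% called (4.15% as higher). None fell by limma at either time, while 3 members at 4 h and 7 at 8 h differed at an unadjusted p under 0.05.

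Both high-dose counts of members that rose include ptr-22, and are 1 at 4 h and 3 at 8 h without it. Of the others, ptr-8 rose at both times, and grl-14 and ptr-12 at 8 h. ptr-22 had signals of 297.1, 599 and 509.8 after 8 h of high acrylamide, against 93.36, 53.66 and 103.2 in the controls. It passed the filter only through exposed arrays, so its calls lend no support and its values are a description: 1.92 ± 0.28 at 8 h and 1.42 ± 0.28 at 4 h (limma adjusted p = 2.7e-05 and 0.0012). ptr-8 had 1016, 1473 and 1490 at 8 h of high acrylamide, against 501.8, 556.5 and 526.4 in the controls. ptr-8 rose by 1.23 ± 0.29 (limma adjusted p = 0.0073), and by 1.08 ± 0.29 at 4 h (adjusted p = 0.025). The 4 h call of ptr-8 was lost without high-dose replicate 2 or 3 or control replicate 2 or 3 (adjusted p between 0.052 and 0.14). grl-14 had 354.4, 642 and 494.8, against 111.3, 139.8 and 113.7 in the 8 h controls, a rise of 1.64 ± 0.37 (limma adjusted p = 0.0051). ptr-12 rose by 0.85 ± 0.19 at 8 h (adjusted p = 0.0051). The patched genes and qua-1 and hog-1 were not called at any acrylamide dose over all arrays.

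Beside these values, markers of other tissues fell after high acrylamide at 8 h: 3 of 6 intestine markers, with a summed signal of 11066 to 12684, against 29005 to 32173 in the controls, and 3 of 7 germline markers, with 11596 to 13279, against 18886 to 22242. The 7 epidermis markers summed to 7783 to 10537, against 12003 to 12719, and the 5 body wall muscle markers to 9370 to 12914, against 16332 to 21709. Of these, limma called 0, with 0 and 3 at an unadjusted p under 0.05. Of 5 pharynx markers 1 rose at 8 h, with a summed signal of 3601 to 4141, against 3554 to 4108. At 4 h 2 of 6 intestine markers fell, with 15142 to 21387, against 29261 to 39058. The part of these markers' tissues in the rise of ptr-22, ptr-8 and grl-14 was not tested.

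**Figure D3:**
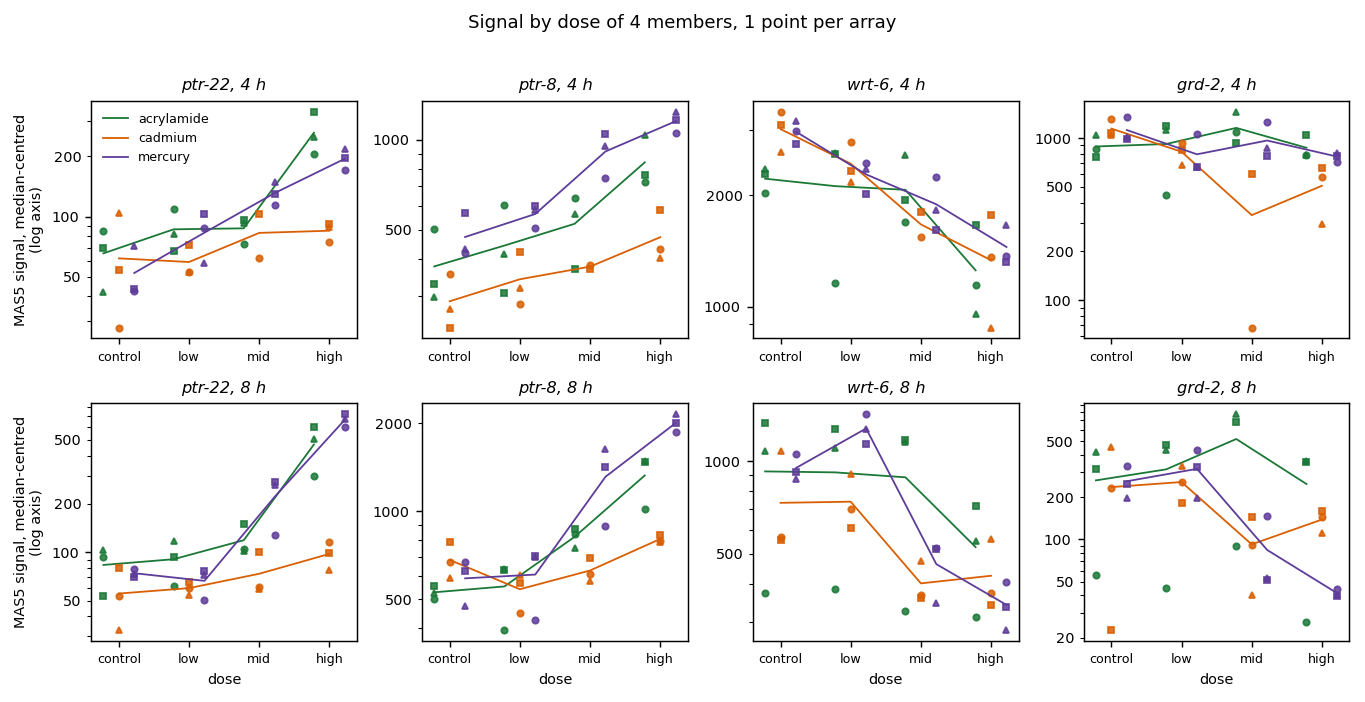
MAS5 signal (log axis) of ptr-22, ptr-8, wrt-6 and grd-2 by dose at 4 h (upper row) and 8 h (lower row), 1 point per array (circle, square and triangle for replicates 1, 2 and 3) and lines through the group means of each series. ptr-22 and ptr-8 climb with mercury and acrylamide to the high dose at 8 h, ptr-22 to 604.2 to 722.6 with mercury, and stay near the controls with cadmium at that time, while grd-2 and wrt-6 have their lowest group means at high mercury at 8 h.

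Few members were called with cadmium. With both directions counted, their share was above that of all probe sets at the high dose at 4 h (10%) and below it at the other doses and times. At the low dose limma called 0 of 60 members at 4 h and 0 of 60 at 8 h, with 0.61% and 0.29% of all probe sets called and 0 at an unadjusted p under 0.05 at either time. At the mid dose at 4 h, with 2 exposed arrays, 4 members fell (14.9% of all probe sets called, 10.4% as lower), and at the high dose at 4 h 6 fell (7.09% called, 4.26% as lower). At 8 h 1 member fell at the mid dose (2.01% called, 0.431% as lower) and the same gene at the high dose (6.43% called, 2.82% as lower). The high dose at 4 h gave 6 lower and 0 higher calls here, 1 lower and 2 higher with the deposited scaling and 4 lower and 1 higher after quantile normalization.

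wrt-1 had 1752, 1559 and 853.9 after 4 h of high cadmium, against 5699, 3473 and 4136 in the controls. These groups did not overlap, and the change was -1.67 ± 0.34 (limma adjusted p = 0.0024), called under each scaling, filter and pseudocount tried and without any 1 array. The other 5 members were nearer the threshold: wrt-10 (-1.55 ± 0.46), wrt-6 (-1.2 ± 0.29), ptr-11 (-1.17 ± 0.34), grd-1 (-1.11 ± 0.29) and ptr-15 (-0.96 ± 0.26), with adjusted p between 0.012 and 0.04. Each of these 5 lost its call with the deposited scaling (adjusted p between 0.071 and 0.15), and the second probe sets of grd-1 and ptr-11 changed by -0.48 and -0.35. The count fell to 1 without high-dose replicate 3 or control replicate 1 and to 2 without control replicate 3. At the mid dose grd-2 had 67.85 and 601.8, against 1319, 1069 and 1041 in the controls, a change of -2.09 ± 0.6 (n = 2 against 3, limma adjusted p = 0.024). The mid-dose calls came to 0 without mid-dose replicate 1 and to 26 without replicate 2, and to 1 and 2 without control replicates 1 and 2.

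wrt-9 was the member that fell with cadmium at 8 h. It had 60.1, 60.21 and 69.96 at the high dose, against 138.2, 131.4 and 158.7 in the controls, and changed by -0.76 ± 0.2 (limma adjusted p = 0.021). All 3 exposed arrays lay below all controls, but also below the filter signal of 131, and the call was lost with the deposited scaling (adjusted p = 0.098), without control replicate 1, 2 or 3 and without high-dose replicate 1 or 2 (adjusted p between 0.05 and 0.078). At the mid dose wrt-9 changed by -0.76 (adjusted p = 0.046), which was lost without mid-dose replicate 1 or 2 or any 1 control (adjusted p between 0.098 and 0.22). qua-1, hog-1, ptc-1 and ptc-3 were not called at any cadmium dose, with 4 h high-dose changes of -0.87 ± 0.39, -0.61 ± 0.4, -0.2 ± 0.28 and -0.75 ± 0.29. At 4 h of high cadmium, 5 of 20 moulting and cuticle genes fell, led by mlt-10 (-1.51 ± 0.3), and the summed signal of the 7 epidermis markers was 6665 to 11867, against 13821 to 16654 in the controls, with 0 of them called by limma and 2 at an unadjusted p under 0.05. The summed signal of the 7 germline markers was 7292 to 13438, against 16467 to 18118, with 0 called by limma and 3 at an unadjusted p under 0.05. Of 5 body wall muscle markers 1 fell by limma and 4 differed at an unadjusted p under 0.05, with 10951 to 16833, against 20793 to 25056. Their part in the members' falls was not tested.

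Mercury changed the most members, in both directions, within a background that was itself high. At 4 h 1 of 59 members fell at the low dose, with 2.69% of all probe sets called (1.65% as lower). At the mid dose 6 rose and 8 fell, with 16.3% called (6.92% as higher and 9.42% as lower), and at the high dose 6 rose and 13 fell, with 22.4% called (9.03% as higher and 13.4% as lower). At 8 h 5 rose at the low dose, with 0.699% called (0.692% as higher). At the mid dose 7 rose and 5 fell, with 17.7% called (10.2% as higher and 7.48% as lower), and at the high dose 8 rose and 15 fell, with 31.1% called (17.1% as higher and 14% as lower). As a share of those tested, 32.2% of members were called at the high dose at 4 h and 39% at 8 h. The rises at the mid and high doses include ptr-22, which passed the filter only through exposed arrays. Without ptr-22, 5 members rose at the high dose at 4 h and 7 at 8 h. With the replicate block, which pairs the 4 h mercury arrays, the low dose at 4 h had 3 calls.

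**Figure D4:**
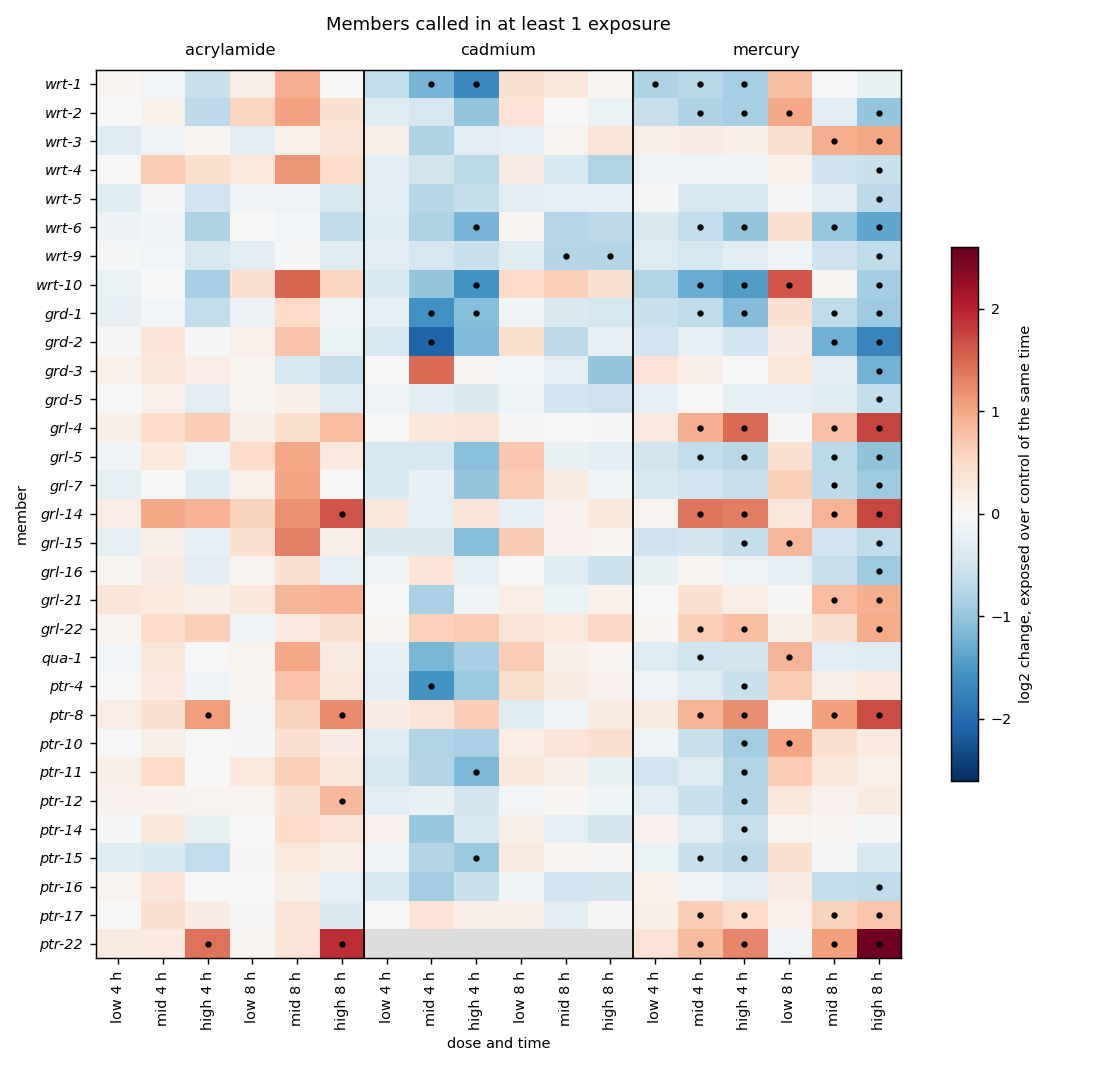
Log2 change (colour, exposed over control of the same time) of the 31 members called in at least 1 exposure, in rows by family, for each dose and time in columns by chemical. A dot marks a call, grey marks a member that was not tested, and the mercury columns hold most of the dots, with ptr-22 at 2.52 the deepest red.

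Among the members that rose with mercury were again ptr-8 and ground-like genes. ptr-22 had 604.2, 722.6 and 676.3 after 8 h of high mercury, against 78.53, 70.27 and 73.44 in the controls. It passed the filter in this series too only through exposed arrays, so these values are a description: 2.52 ± 0.2 at the high dose and 1.07 ± 0.2 at the mid dose at 8 h, and 1.26 ± 0.2 at the high dose at 4 h. ptr-8 had 1867, 1998 and 2149, against 669.4, 625 and 474.6 in the 8 h controls, and lay above the filter signal of 131 in every mercury array. ptr-8 rose by 1.69 ± 0.24 at 8 h and 1.21 ± 0.24 at 4 h of the high dose (limma adjusted p = 2.5e-06 and 0.00031), and by 1.06 ± 0.24 at the mid dose at 8 h (adjusted p = 0.0017).

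grl-4 had 3337, 4490 and 4622 after 8 h of high mercury, against 1241, 1077 and 1231 in the controls. It rose by 1.76 ± 0.27 at 8 h and by 1.47 ± 0.27 at 4 h (limma adjusted p = 8.1e-06 and 0.00012), though its probe set is marked for possible cross-hybridization. grl-14 rose by 1.73 ± 0.23 at 8 h and 1.33 ± 0.23 at 4 h of the high dose (adjusted p = 1.4e-06 and 8.5e-05), and by 1.4 ± 0.23 at the mid dose at 4 h. wrt-3, a dim warthog gene, had 248.1, 193.2 and 268 at 8 h of the high dose, against 136.2, 121.3 and 39.98 in the controls, a rise of 1.0 ± 0.21 (limma adjusted p = 0.00043). grl-22 rose by 0.79 ± 0.2 at 4 h of the high dose (adjusted p = 0.0041).

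The members that fell with high mercury were divided among the families at 4 h, where 6 of 13 were patched-related genes. At 8 h they came mostly from the ligand-like families, with 1 patched-related gene among 15. wrt-6 had 403.8, 336.6 and 283.2 after 8 h, against 1059, 922.2 and 874.3 in the controls, and at 4 h 1371, 1321 and 1658, against 2994, 2749 and 3179. The groups stood apart at both times, with changes of -1.36 ± 0.17 at 8 h and -1.02 ± 0.17 at 4 h (limma adjusted p = 3.7e-07 and 4.2e-05). grd-2 had 44.23, 39.95 and 40.13 after 8 h, against 330.9, 248.3 and 198 in the controls, and fell by 1.72 ± 0.25 (limma adjusted p = 4.9e-06), so that all exposed arrays lay below the filter signal. grd-1 fell at both times, by 1.13 ± 0.22 at 4 h and 0.94 ± 0.22 at 8 h, while a second grd-1 probe set changed by -0.41 and -0.16. At 8 h grd-3 fell by 1.22 ± 0.28, grl-5 by 1.04 ± 0.21, wrt-2 by 1.01 ± 0.21 and grl-16 by 0.95 ± 0.22 (limma adjusted p between 0.00041 and 0.0014).

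At 4 h the largest fall with high mercury was that of wrt-10, with 1556, 1318 and 1532 in exposed worms, against 4491, 3990 and 3848 in the controls (-1.45 ± 0.26, limma adjusted p = 9.4e-05). The mid dose gave -1.29 ± 0.26 for wrt-10. ptr-10 fell by 0.9 ± 0.23, wrt-1 by 0.89 ± 0.22, wrt-2 by 0.87 ± 0.21 and ptr-11 by 0.79 ± 0.2 at 4 h of the high dose (limma adjusted p between 0.0031 and 0.005). For ptr-11 the second probe set changed by -0.07 there. By family, 4 of 10 warthog, 1 of 8 groundhog, 2 of 16 ground-like and 6 of 21 patched-related genes fell at 4 h. At 8 h 6 of 10 warthog, 4 of 8 groundhog, 4 of 16 ground-like and 1 of 21 patched-related genes fell. wrt-1, called at 4 h, was not called at 8 h of the high dose.

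After 8 h of low mercury 5 members rose and none fell. wrt-10 had 2193, 2450 and 2314, against 1027, 674.6 and 505.2 in the controls, and rose by 1.64 ± 0.26 (limma adjusted p = 0.00055). ptr-10 rose by 1.03 ± 0.23, wrt-2 by 1.01 ± 0.21, qua-1 by 0.88 ± 0.17 and grl-15 by 0.86 ± 0.19 (adjusted p between 0.0065 and 0.023). The exposed arrays of wrt-10 stood above all 8 h controls and below all 4 h controls (3848 to 4491). These 5 genes are among those that fell in the unexposed worms from 4 h to 8 h, and both comparisons use the same 8 h controls. Without control replicate 3 or low-dose replicate 3, 1 member was called in place of 5, and without control replicate 2 and low-dose replicate 1, 3 and 2. At 4 h of the low dose wrt-1 changed by -0.81 ± 0.22 (adjusted p = 0.034), which was lost without control replicate 1 or 3 or low-dose replicate 2 or 3 (adjusted p between 0.075 and 0.27).

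Without control replicate 1 or mid-dose replicate 2, the mid mercury dose had 6 and 4 calls at 4 h in place of 14, and 7 and 6 at 8 h in place of 12. The splits of the mid dose moved with the scaling, to 6 higher and 5 lower at 4 h under both other scalings, and at 8 h to 7 higher and 9 lower with the deposited scaling and 7 higher and 10 lower after quantile normalization.

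Beside the rise of qua-1 at 8 h of the low dose given above, 1 mercury call fell on qua-1, hog-1, ptc-1 and ptc-3. qua-1 had 1517, 1406 and 1797 at 4 h of the high dose, against 2295, 2235 and 2049 in the controls, a change of -0.47 ± 0.17 that just missed the threshold, and at the mid dose it was called lower (-0.51 ± 0.17, limma adjusted p = 0.041). In the fit with the replicate block, which pairs the 4 h high-dose and control arrays, qua-1 and ptc-3 were called lower at the high dose (-0.47 and -0.62, adjusted p = 0.028 and 0.024). At 8 h of the high dose the changes of qua-1, hog-1, ptc-1 and ptc-3 were -0.34 ± 0.17, -0.21 ± 0.18, 0.28 ± 0.16 and 0.07 ± 0.27, none of them called.

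Markers of other tissues moved with the mid and high mercury doses, and so did an RNA measure of actin. At 8 h of the mid dose, 4 of 6 intestine markers fell, with a summed signal of 15421 to 18671, against 30320 to 37076 in the controls, as did 1 of 5 body wall muscle and 2 of 7 germline markers. At 4 h 5 of 6 intestine markers fell at the mid dose, with 16068 to 16758, and 5 of 6 at the high dose, with 16903 to 25992, against 31801 to 44343 in the controls. At 8 h of the high dose, 6 of 6 intestine markers fell, with a summed signal of 15216 to 17629, against 30320 to 37076 in the controls, and 4 of 5 body wall muscle markers fell, with 6426 to 9273, against 17718 to 22840. Of 7 epidermis markers 3 fell, with 9156 to 11420, against 12902 to 17208, while 0 of 5 glia markers and 0 of 2 seam cell markers were called by limma, with 0 at an unadjusted p under 0.05. Other markers rose. Of 5 neuron markers 1 rose at 8 h of each of these doses, with 6222 to 7133 (mid) and 6179 to 7331 (high), against 4265 to 5544. Of 5 pharynx markers 1 rose at the high dose at both times, with a summed signal of 3294 to 4666 at 8 h, against 4323 to 4893. The log2 ratio of the 3' to the 5' actin probe sets was 1.53 ± 0.13 after high mercury, against 1.01 ± 0.1 in the controls at 8 h (SD, n = 3), and 1.31 ± 0.13, against 0.85 ± 0.08, at 4 h. The same ratio for gapdh was 0.16 ± 0.15, against 0.17 ± 0.05, at 8 h and 0.06 ± 0.05, against 0.04 ± 0.11, at 4 h. For actin it was also 1.34 ± 0.05 after 8 h of mid mercury, against 1.01 ± 0.1 in the controls. At 4 h of mid mercury it was 1.19 ± 0.28, with arrays from 0.88 to 1.43, against 0.79 to 0.94 in the controls. After 8 h of high acrylamide the actin value was 1.31 ± 0.17, against 0.97 ± 0.1 in the controls. After 4 h of high cadmium the actin value was 1.07 ± 0.31, against 0.65 ± 0.18. Such a ratio can rise with RNA breakdown, and its part in the members' changes was not tested.

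High acrylamide and high mercury, which have separate controls, shared higher members in part. ptr-22 was called with both, but is left out of these counts because it passed the filter in both series only through exposed arrays. At 8 h grl-14 and ptr-8 rose with both, 28.6% of the 7 mercury and 66.7% of the 3 acrylamide members left. At 4 h ptr-8 was shared, the single acrylamide member left and 20% of the 5 mercury members. High cadmium and high mercury shared lower members at 4 h: all 6 of cadmium (grd-1, ptr-11, ptr-15, wrt-1, wrt-10 and wrt-6), which are 46.2% of those of mercury. The matching overlaps over all probe sets are not given here, so these shares only describe the members.

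Tests of the difference between chemicals, each against its own control in 1 fit of all arrays, called 4 values of 3 members, all at 8 h, of which the 2 of ptr-22 are a description and lend no support, since it passed the filter through exposed mercury and acrylamide arrays. ptr-22 had 115.7, 99.59 and 77.84 after 8 h of high cadmium, against 53.54, 79.54 and 32.95 in the controls, too dim to be tested within the cadmium series. Its cadmium change was below that of mercury by 2.02 on the log2 scale (difference -2.02, limma adjusted p = 2.9e-05) and below that of acrylamide by 1.42 (difference -1.42, adjusted p = 0.0048). Of all probe sets, 3.35% were called between cadmium and mercury (1.25% as lower) and 2.42% between cadmium and acrylamide (0.823% as lower). ptr-8 had 794.2, 830.7 and 787.5 after 8 h of high cadmium, against 669.9, 784.3 and 590.8 in the controls, and its cadmium change was below that of mercury by 1.46 (difference -1.46, limma adjusted p = 0.0083). grl-6 was the single member that differed between mercury and acrylamide at 8 h (-1.45, limma adjusted p = 0.047, with 3.33% of all probe sets called and 1.48% as lower). At 4 h, 0 of 70 members differed between any pair of chemicals by limma (2.03%, 2.67% and 1.63% of all probe sets called), and 2 or 3 did at an unadjusted p under 0.05.

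Between the times, limma called the high-dose change of 1 of 59 members in the mercury series, with 0.793% of all probe sets called and 0.415% as higher. This was ptr-22, by 1.26 at 8 h less 4 h (limma adjusted p = 0.034), again a description because of how it passed the filter. In the acrylamide and cadmium series 0 of 65 and 0 of 60 members differed, with 0.0% and 0.234% of all probe sets called and 1 and 7 members at an unadjusted p under 0.05. Falls called at 4 h and not at 8 h, with cadmium or with mercury, are therefore not shown to differ between the times.

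In all, 44 of the 80 members were called in at least 1 exposure or control comparison, 40 of them with time in unexposed worms and 31 with an exposure. The matching share of all probe sets is not given here, so these counts only describe the members. The probe sets of 26 members carry a suffix for possible cross-hybridization, as for wrt-10, qua-1, ptc-3, grl-4 and ptr-8. Among the 34 members tested without that suffix in the mercury series, 17 fell and 1 rose in the controls from 4 h to 8 h. With the high dose at 8 h 8 fell and 5 rose, ptr-22 among the latter. The shares of all probe sets called in both comparisons, suffixed ones included, are given above.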

How the data were processed

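The authors deposited 1 intensity for each probe set, the linear MAS5 signal per the labels and files, and the values show arrays scaled to a shared trimmed mean with 1 exception. The version of MAS5 and the scaling target are not given in the sources used here. The array holds 22625 probe sets. After removal of 77 control sets, 20766 of 22548 matched 1 gene symbol in the platform annotation.

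Each array was centred on a median of 202.9, the pseudocount 51 (20th percentile of signals) was added, and log2 taken. Probe sets above a signal of 131 (40th percentile) in at least 3 arrays of a series were tested (16542, 16225 and 15886 in the acrylamide, cadmium and mercury series, 17855 over all arrays). Each series was fitted with limma 3.58.1 in R 4.3.3, 1 mean per group, and chemicals were compared with each other in a single fit of the 80 arrays. The p values were adjusted by Benjamini-Hochberg within a contrast over all probe sets tested. The fit was tested on simulated data. The number of arrays limits the precision.

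The members and lists were chosen with earlier results of these data known. The text names, by rule, up to 5 higher and 7 lower called members per high dose, up to 4 in each direction per control interval, up to 3 per lower dose, up to 2 per difference, the patched genes, qua-1 and hog-1, and up to 3 called list genes per high dose. Genes named beyond it were chosen after their values were seen: ptr-4 in the controls, and the marker and list genes given for the control intervals. All 80 symbols matched the RefSeq gene table (WBcel235), used for names and neighbours only, and no sequences are printed because none were at hand. The listed ptc-2, hhat-1, nhr-73, nhr-74, hlh-17 and mir-228 had no probe set of 1 symbol.

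Replicate numbers come from the sample titles. Deviations from the group mean correlated over 0.1 in each of 3 same-numbered pairs in 10 comparisons: acrylamide low at 8 h and mid at 4 h and 8 h, cadmium low at 4 h and control 4 h over 0 h, mercury low, mid and high at 4 h, low at 8 h and control 4 h over 0 h. There the blocked value stands beside the result where it changes it. Alternatives were the deposited scaling, quantile normalization, a pseudocount of 16, no filter, a filter of 308, the replicate block, fits of only the groups compared, unsuffixed probe sets and leaving out each array.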

Additional observations from a re-analysis of the deposited data

Results flagged for a closer look

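Each result here was noted because a test of the difference between 2 conditions itself passed the threshold (limma, p adjusted over all probe sets tested). The 3 values of ptr-22 are a description and lend no support, because it passed the filter only through exposed arrays, where it was high. ptr-22 rose more at 8 h than at 4 h of high mercury, by 1.26 on the log2 scale. This call was lost with a pseudocount of 16 (adjusted p = 0.095) and without any 1 of 10 of the 12 arrays compared (adjusted p between 0.055 and 0.095).

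At 8 h of the high dose, the change of ptr-22 was lower with cadmium than with acrylamide by 1.42 (difference -1.42) and lower with cadmium than with mercury by 2.02 (difference -2.02). ptr-22 was below the filter signal of 131 in every control, so these sizes depend on the pseudocount. The difference between cadmium and acrylamide lost its call in the fit of only the groups compared (adjusted p = 0.057). The change of ptr-8 was lower with cadmium than with mercury by 1.46 (difference -1.46), and it stayed called under each alternative tried.

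The change of grl-6 was lower with mercury than with acrylamide at 8 h (difference -1.45). grl-6 had 112.8, 97.2 and 127.8 after high mercury, against 205.8, 100.9 and 374.4 in the mercury controls, and 241.2, 218 and 247 after high acrylamide, against 50.16, 167.3 and 149.2 in the acrylamide controls. The call was lost without any 1 of 9 arrays, among them mercury control replicate 3 (-1.08, adjusted p = 0.29) and acrylamide control replicate 1 (-1.1, adjusted p = 0.25).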

How the results depend on the processing

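Of 2378 values of named genes under the alternatives, 2204 stayed on the same side of the threshold, 155 lost their call, 19 gained one, and 0 turned direction with a call on either side. The deposited scaling shifts the median change of all probe sets by over 0.1 in 13 contrasts, most for the acrylamide controls at 4 h over 0 h (0.35, against -0.15 here), and also for high cadmium at 4 h (0.1, against -0.12) and the mercury controls at 8 h over 4 h (0.06, against -0.09), so calls are relative to the centring. Dim members near the filter signal, ptr-22 and wrt-9 among them, have the least certain sizes, and the cause of the shifts below was not tested. For most counts below the share of all probe sets called is not given, so they only describe the members.

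With the replicate block, counts of called members became 1 for acrylamide mid at 8 h, 4 and 13 for the acrylamide controls (4 h over 0 h and 8 h over 4 h), 9 for cadmium mid at 4 h, 2 for cadmium high at 8 h, 8 for the cadmium controls at 4 h over 0 h, 3 for mercury low at 4 h, 5 for mercury high at 8 h less 4 h, and 2 and 3 for the 8 h differences of cadmium and of mercury from acrylamide. The block moved no other count by over 1.5 times.

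With the deposited scaling, counts became 12 (acrylamide controls, 4 h over 0 h), 3 (cadmium high at 4 h) and 0 (cadmium mid and high at 8 h). After quantile normalization they became 0 (acrylamide controls at 8 h over 4 h, mercury low at 4 h), 2 (mercury high at 8 h less 4 h, mercury less acrylamide at 8 h), 1 (cadmium less acrylamide at 4 h) and 3 (the same at 8 h). With a pseudocount of 16, 0 were called in the acrylamide controls at 4 h over 0 h and for mercury less acrylamide at 8 h. Without a filter, 0 were called in both acrylamide control intervals, cadmium mid at 8 h and mercury less acrylamide at 8 h. The filter of 308 gave 2 (acrylamide controls at 4 h over 0 h, and cadmium and mercury less acrylamide at 8 h) and 0 (cadmium mid and high at 8 h). Fits of only the groups compared gave 0 (both acrylamide control intervals, cadmium mid at 4 h and 8 h, mercury less acrylamide at 8 h), 2 (cadmium high at 8 h, mercury low at 4 h and 8 h), 10 (mercury controls at 4 h over 0 h), 3 (mercury high at 8 h less 4 h) and 4 (cadmium less mercury at 8 h). Unsuffixed probe sets moved no count by over 1.5 times, but ended the call of ptr-4 for cadmium mid at 4 h (-0.24).

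Leaving out single arrays, or replicate 1 in every acrylamide group, the counts ranged as follows. For acrylamide they were 1 to 3 (high at 4 h), 4 to 5 (high at 8 h), 0 to 7 (mid at 8 h), 0 to 19 (controls, 4 h over 0 h) and 0 to 18 (controls, 8 h over 4 h). For cadmium they were 0 to 26 (mid at 4 h), 1 to 8 (high at 4 h), 0 to 1 (mid and high at 8 h), 0 to 10 (controls, 4 h over 0 h), 20 to 29 (controls, 8 h over 4 h) and 0 to 1 (high at 8 h less 4 h). For mercury they were 0 to 1 (low at 4 h), 4 to 16 (mid at 4 h), 14 to 18 (high at 4 h), 1 to 7 (low at 8 h), 6 to 12 (mid at 8 h), 19 to 24 (high at 8 h), 11 to 17 (controls, 4 h over 0 h), 28 to 32 (controls, 8 h over 4 h) and 0 to 2 (high at 8 h less 4 h). For the differences they were 0 to 1 (cadmium less acrylamide at 4 h), 1 to 2 (the same at 8 h), 0 to 1 (mercury less acrylamide at 8 h) and 2 to 3 (cadmium less mercury at 8 h).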

Other observations

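Of the other genes of the hedgehog route, scp-1 changed most with high mercury. This homologue of SCAP, a sterol-sensing escort of lipid-regulating factors in mammals, rose by 3.09 ± 0.33 after 4 h and 3.48 ± 0.33 after 8 h of high mercury (limma adjusted p = 5e-08 and 4.5e-09). At the mid mercury dose the largest rise among these route genes was 3.83 at 4 h and 3.23 at 8 h. lon-2, a glypican that restrains body size, fell with high acrylamide by 0.62 ± 0.18 at 4 h and 0.99 ± 0.18 at 8 h, and with high mercury by 1.03 ± 0.23 at 4 h and 0.63 ± 0.23 at 8 h. ncr-2, a homologue of the cholesterol transporter NPC1, fell with high mercury by 0.66 ± 0.16 at 4 h and 0.73 ± 0.16 at 8 h. tra-1, the Gli homologue that sets sexual fate in worms, fell by 0.7 ± 0.22 at 8 h of high mercury. With high cadmium limma called 0 of these 11 genes at 4 h or 8 h, and 5 and 4 differed at an unadjusted p under 0.05.

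Moulting and cuticle genes fell with high mercury as well, 12 of 20 at 4 h and 11 of 20 at 8 h, with 2 higher at 8 h. sym-1 fell by 1.75 ± 0.24 at 4 h, and the adult strut collagens bli-2 and bli-1 fell by 1.66 ± 0.2 and 1.59 ± 0.24 at 8 h. lrp-1, the worm megalin needed for moulting, rose by 0.91 ± 0.19 at 8 h of high mercury and fell by 0.99 ± 0.19 in the unexposed mercury controls from 4 h to 8 h; both use the same 8 h controls.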
